A study of Mus musculus with 17 samples.

Results

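Of the 4 ErbB receptor genes, 1 (Erbb2) was measured in this study, found as the rows of the count tables whose symbol begins with Erbb or equals Egfr. It was 1 of 988 panel genes, and Egfr, Erbb3 and Erbb4 were not analysed here. Erbb2 is described across 17 colon samples in 4 groups. The 6 Kit-W/sh tumors and the 6 Kit-B6 tumors were taken at postnatal week 32, after 6 azoxymethane injections over 6 weeks and 18 further weeks. The 2 Kit-W/sh and 3 Kit-B6 preneoplastic colon samples were taken at postnatal week 14, after 3 injections over 3 weeks and 3 further weeks. Kit-W/sh is the W-sash strain, whose inverted stretch of DNA near the Kit gene lowers Kit in some cell types, so that adults lack most mast cells and some other cells that rely on Kit. Kit-B6 stands for C57BL/6, which carries the usual Kit allele. Every group had been given the colon carcinogen azoxymethane, and no sample from untreated colon is among the groups. Transcripts were counted with a targeted PCR panel of immune and tumor genes. The comparison of the 2 genotypes asks how tumors and preneoplastic colon differ between mice with mast cells and mice short of them.

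The ErbB receptors are receptor tyrosine kinases of epithelial cells. EGF family ligands bind Egfr, Erbb3 and Erbb4, whereas ErbB2 has no known ligand and signals as the partner of the other receptors. Paired receptors pass the signal to the RAS-MAPK, PI3K-AKT and STAT branches. In the gut epithelium the family is known for regulating growth and repair, and ERBB2 is amplified in a small share of human colorectal cancers.

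Erbb2 (also Neu or HER2) lies on the plus strand of mouse chromosome 11, at chr11:98412470-98437716 in GENCODE M21 (GRCm38), where it is annotated as protein-coding. The submitters' processing notes name mm9, another build, and positions were not converted. The place of the counted amplicon in the transcript is not given in the sources used here. The promoter is shown because it holds the annotated RefSeq start of Erbb2, and the start of the counted transcript was not measured. The RefSeq window chr11:98412234-98412533 (GRCm38.p6) holds 250 bases before and 50 bases from the RefSeq start, chr11:98412484. That start lies downstream of the GENCODE start given above. The capitals mark the motifs that were searched on both strands.
Erbb2 promoter: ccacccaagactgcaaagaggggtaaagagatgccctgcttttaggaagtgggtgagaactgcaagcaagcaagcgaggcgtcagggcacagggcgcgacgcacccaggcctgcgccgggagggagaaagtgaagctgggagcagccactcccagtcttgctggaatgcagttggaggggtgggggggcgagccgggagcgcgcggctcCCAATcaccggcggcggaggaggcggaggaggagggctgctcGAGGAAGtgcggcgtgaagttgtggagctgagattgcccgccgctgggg
CCAAT, a box bound by NF-Y, begins 41 bases before the RefSeq start and occurs in 37.4% of the 32851 promoter windows. GAGGAAG, an Ets-type sequence known from the human ERBB2 promoter, begins at base 2 of the RefSeq transcript and occurs in 13.6% of the windows. The letters do not overlap, and no measurement here bears on binding at them.

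Library totals were 1049408 to 1262171 counts in the Kit-W/sh tumors, 616554 to 1399902 in the Kit-B6 tumors, 621141 and 815973 in Kit-W/sh preneoplastic colon and 616009 to 703549 in Kit-B6 preneoplastic colon. Erbb2 had between 255 and 1219 counts in a library. Counting error alone gave the library with 255 counts a 95% exact Poisson interval of 224.7 to 288.3 counts. Kit itself was at 49.1 to 258 CPM in the Kit-W/sh tumors, 94.2 to 476 CPM in the Kit-B6 tumors, 113 to 125 CPM in Kit-W/sh preneoplastic colon and 264 to 521 CPM in Kit-B6 preneoplastic colon. CPM are counts per 1e6 counts of a library, after scaling by the trimmed mean of M values (TMM), and serve to compare 1 gene between libraries, not 1 gene with another. A pair of libraries stood apart from their groups. The library labelled Kit-W/sh tumor 2 had the highest level of the mast cell carboxypeptidase Cpa3 of all 17, at 460 CPM, against 0 to 9.86 CPM in the other Kit-W/sh tumors and 11.4 to 257 CPM in Kit-B6 tumors. This level goes against its label of a genotype short of mast cells, and the library was kept under that label. The 9 measured genes of the 11 on the mast cell list, which include Kit and Cpa3, summed to 1524 CPM in that library. They summed to 267.5 to 629.9 CPM in the other Kit-W/sh tumors and 457.7 to 1545 CPM in Kit-B6 tumors, highest in number 5. In preneoplastic colon Cpa3 was at 0 CPM in Kit-W/sh and at 5.43, 10.8 and 1.55 CPM in Kit-B6 samples 1 to 3. Kit-B6 tumor 4 had 14910 CPM of the colonocyte carbonic anhydrase Car4, and the other Kit-B6 tumors had at most 3852 CPM. Results are given with and without both libraries. The deposited names of Kit-B6 tumors 4 and 5 share a stem that no other pair of tumors shares. Whether these tumors came from 1 mouse is not stated.

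Erbb2 was lower on average in Kit-W/sh tumors than in any other group. Kit-W/sh tumors 1 to 6 had 507, 540, 390, 447, 437 and 454 CPM. Kit-B6 tumors 1 to 6 had 762, 826, 767, 1261, 512 and 499.9 CPM. All 6 Kit-W/sh tumors lay below the Kit-B6 median of 765 CPM, and the groups overlapped because Kit-B6 tumors 5 and 6 lay at the level of the highest Kit-W/sh tumors, numbers 1 and 2. The mean was 463 ± 53.3 CPM in the Kit-W/sh tumors, against 772 ± 277 CPM in the Kit-B6 tumors (SD, n = 6 each). The spread was also smaller in Kit-W/sh tumors, with a coefficient of variation of 11.5%, against 35.9% in Kit-B6 tumors. Without Kit-B6 tumor 4 the Kit-B6 mean was 674 ± 155 CPM (coefficient of variation 23.0%, n = 5), and without the library labelled Kit-W/sh tumor 2 the Kit-W/sh mean was 447 ± 41.8 CPM (9.35%, n = 5).

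**Figure D1:**
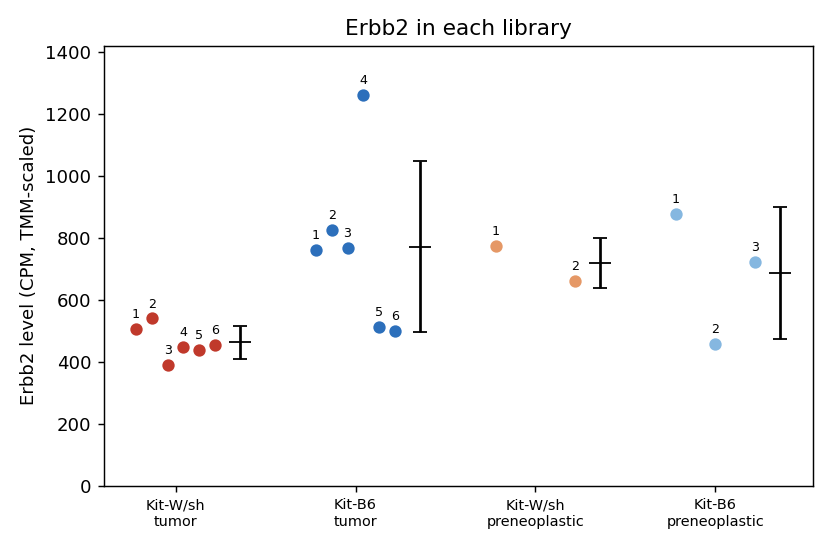
Erbb2 level in CPM after TMM scaling, by group. Each point is 1 library with its sample number, and the bar beside each group is the mean ± SD; the 6 Kit-W/sh tumors lie between 390 and 540 CPM, and 4 of the 6 Kit-B6 tumors lie above them.

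In tumors the log2 fold change of Erbb2, Kit-W/sh over Kit-B6, was -0.75 ± 0.21 (SE, 95% interval -1.20 to -0.30), a 1.68-fold lower level. The unadjusted p was 0.00336, the 15th smallest of 799 genes tested, and the edgeR quasi-likelihood p after Benjamini-Hochberg adjustment over all genes was 0.154, so the difference did not pass the threshold of 0.05. edgeR called 0 of 799 genes (0% of them), and 109 (13.6%) had an unadjusted p under 0.05. DESeq2 called Erbb2 (log2 fold change -0.77 ± 0.22, adjusted p = 0.0246), among 27 genes called (3.35% of those it adjusted), 7 of them lower (0.868%). A two-sided exact permutation test of log2 CPM gave a difference of -0.67 with p = 0.0108, and 6 against 6 samples can reach 0.00216 at the lowest. The adjusted p ranged from 0.0246 to 0.607 over the other tools, scalings and fits, and from 0.0812 to 0.349 on leaving out 1 library at a time. Without both libraries that stood apart, the log2 fold change was -0.61 ± 0.17 (edgeR adjusted p = 0.0864). With the counts of Kit-B6 tumors 4 and 5 summed as 1 library it was -0.67 ± 0.15 (edgeR adjusted p = 0.064).

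Epcam, an adhesion molecule of epithelial cells, did not show the same difference, and Erbb2 was lower in Kit-W/sh tumors also when it was set against Epcam. Epcam averaged 26940 ± 3298 CPM in the Kit-W/sh tumors, against 27520 ± 4297 CPM in the Kit-B6 tumors (log2 fold change -0.043 ± 0.13, edgeR adjusted p = 0.913). It was the only measured gene of the 16 on the epithelial list, and it was present in all 17 libraries (22190 to 34780 CPM), as was Car4 of colonocytes (98.8 to 91630 CPM). Per 1000 Epcam counts, Kit-W/sh tumors 1 to 6 had 17.6, 24.3, 16.8, 15.7, 14.8 and 15.6 Erbb2 counts. Kit-B6 tumors 1 to 6 had 27.1, 37.0, 26.3, 36.3, 20.2 and 19.7 Erbb2 counts. All Kit-W/sh tumors but the library labelled Kit-W/sh tumor 2 lay below every Kit-B6 tumor, and that library lay among the Kit-B6 values. This ratio needs no scaling between libraries. Its mean was 17.4 ± 3.52 in Kit-W/sh tumors and 27.8 ± 7.50 in Kit-B6 tumors (SD, n = 6 each). The log2 difference was -0.65 (two-sided exact permutation p = 0.0108, not adjusted over genes). With Epcam scaling of all genes, edgeR gave Erbb2 -0.67 ± 0.19 (adjusted p = 0.231), which did not pass. The ratio holds the same Erbb2 counts as the level above and is not independent of it. Leaving out 1 library at a time gave -0.75 to -0.56 with exact permutation p-values of 0.00433 to 0.0216. In bulk tissue, fewer Erbb2-expressing cells and less Erbb2 RNA per cell cannot be told apart.

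**Figure D2:**
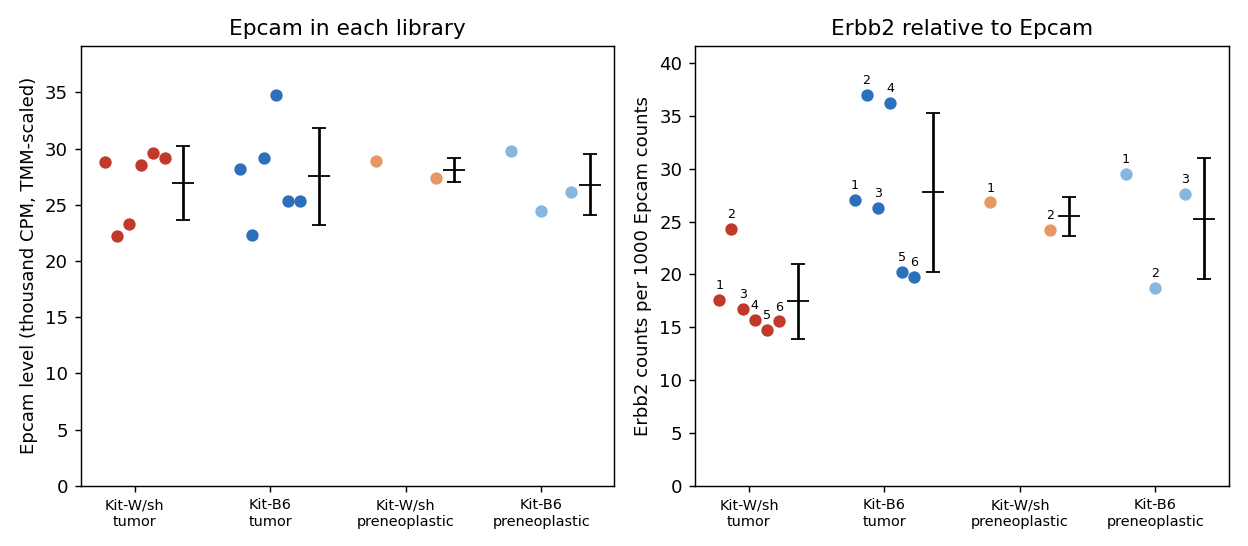
Left, Epcam level in units of 1000 CPM after TMM scaling; right, Erbb2 counts per 1000 Epcam counts, both by group. Points are libraries (sample numbers at right) and bars are mean ± SD; Epcam averages lie close together, whereas the Erbb2 ratio averages 17.4 in Kit-W/sh tumors and 27.8 in Kit-B6 tumors.

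The marker sums of other cell types overlapped between the genotypes in tumors, and that of the neutrophil list reached higher in Kit-W/sh. This list also holds the chemokines Cxcl1, Cxcl2 and Cxcl5, so its sum is not a measure of neutrophil number. The summed level of the 7 measured genes of the 11 on the neutrophil list was 5200 to 20830 CPM in the Kit-W/sh tumors, against 844 to 8424 CPM in the Kit-B6 tumors. The 3 measured genes of the 9 on the differentiated colonocyte list (Car4, Ceacam1 and Ceacam20) summed to 15250 to 27880 CPM in the Kit-W/sh tumors, against 15320 to 50070 CPM in the Kit-B6 tumors. The 4 measured genes of the 12 on the fibroblast list summed to 7858 to 14550 CPM in the Kit-W/sh tumors, against 4462 to 19730 CPM in the Kit-B6 tumors. The 3 measured genes of the 12 on the proliferation list (Mki67, Birc5 and Hells) summed to 2848 to 6414 CPM (median 4330) in the Kit-W/sh tumors, against 2432 to 5074 CPM (median 3035) in the Kit-B6 tumors. Of these, DESeq2 called Hells higher in Kit-W/sh (adjusted p = 0.0423), and edgeR did not (adjusted p = 0.154). No measured gene of these lists was at 0 throughout either tumor group. Their part in the Erbb2 difference was not tested.

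In preneoplastic colon the 2 genotypes had similar Erbb2 averages, and the interval of the difference was wide. Kit-W/sh samples 1 and 2 had 774 and 662 CPM, and Kit-B6 samples 1 to 3 had 878, 458 and 722 CPM. Both Kit-W/sh values lay within the range of the Kit-B6 values. The mean was 718 ± 79.6 CPM in Kit-W/sh (SD, n = 2) and 686 ± 212 CPM in Kit-B6 (SD, n = 3), a log2 fold change of 0.041 ± 0.28 (95% interval -0.64 to 0.72, edgeR adjusted p = 0.968). The tumor value of -0.75 lies below this interval, and the intervals of the 2 differences overlap. The sign turned to -0.18 without Kit-B6 sample 2, to -0.11 without Kit-W/sh sample 1 and to -0.029 with reference-gene scaling. edgeR called 1 of 777 genes in this comparison (0.129%), 83 (10.7%) had an unadjusted p under 0.05, and DESeq2 called 20 (2.14%).

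Between stages, Erbb2 was lower in Kit-W/sh tumors than in Kit-W/sh preneoplastic colon, with no overlap between the 6 tumors (390 to 540 CPM) and the 2 preneoplastic samples (662 and 774 CPM). Among all genes, 28.2% were lower without overlap in this comparison. The log2 fold change, tumor over preneoplastic, was -0.65 ± 0.29 (95% interval -1.25 to -0.043). Its edgeR adjusted p of 0.0814 did not pass, in a comparison in which edgeR called 345 of 869 genes (39.7%), 18.8% as lower and 20.9% as higher. The call depended on the fit. It passed in a fit of the 2 Kit-W/sh groups alone (-0.66 ± 0.15, edgeR adjusted p = 0.00766), which called 413 of 852 genes (48.5%). It also passed in the fit without both libraries that stood apart (-0.695 ± 0.24, edgeR adjusted p = 0.028), which called 400 of 863 genes (46.3%). With unscaled library totals the value was -0.40 ± 0.27 (edgeR adjusted p = 0.248), and there the median of all genes moved to 0.34, against 0.081 with TMM scaling. Relative to that median Erbb2 was at -0.74 with unscaled totals and at -0.73 with TMM scaling. Per 1000 Epcam counts, Erbb2 averaged 17.4 ± 3.52 in Kit-W/sh tumors and 25.5 ± 1.85 in Kit-W/sh preneoplastic colon, with a two-sided exact permutation p of 0.143, and 6 against 2 samples cannot go below 0.0714.

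In Kit-B6 mice Erbb2 did not pass between stages. The tumors (499.9 to 1261 CPM) and the 3 preneoplastic samples (458 to 878 CPM) overlapped. The log2 fold change, tumor over preneoplastic, was 0.15 ± 0.26 (95% interval -0.39 to 0.70, edgeR adjusted p = 0.651), in a comparison in which edgeR called 357 of 869 genes (41.1%), 22.2% as higher and 18.9% as lower. It was -0.041 without Kit-B6 tumor 4 and -0.063 without preneoplastic sample 2, so the sign rested on single libraries. Per 1000 Epcam counts Erbb2 averaged 27.8 ± 7.50 in Kit-B6 tumors and 25.3 ± 5.75 in Kit-B6 preneoplastic colon (two-sided exact permutation p = 0.738). The 3 differentiated colonocyte genes moved with stage in both genotypes. Their sum was 15250 to 27880 CPM in the Kit-W/sh tumors, against 113500 to 116800 CPM in Kit-W/sh preneoplastic colon, and 15320 to 50070 CPM in the Kit-B6 tumors, against 65320 to 154500 CPM in Kit-B6 preneoplastic colon. Their part in the Erbb2 values was not tested. Stage goes with age, number of injections and tissue, and these cannot be told apart.

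The difference between the 2 genotype differences, that in tumors less that in preneoplastic colon, was -0.80 ± 0.39 for Erbb2 (95% interval -1.62 to 0.021). It did not pass (unadjusted p = 0.0554, edgeR adjusted p = 0.66). edgeR called 0 of 869 genes (0%) for this term, 63 (7.25%) had an unadjusted p under 0.05, and DESeq2 called 1 (0.104%). The genotype difference in tumors is therefore not shown to differ from that in preneoplastic colon, nor the stage difference in Kit-W/sh from that in Kit-B6. In order of mean level the groups ran downwards as Kit-B6 tumors (772 CPM), Kit-W/sh preneoplastic colon (718 CPM), Kit-B6 preneoplastic colon (686 CPM) and Kit-W/sh tumors (463 CPM). The ranges of the first 3 overlap, and the range of the Kit-W/sh tumors overlaps those of both Kit-B6 groups.

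With all libraries of a stage, no other ErbB signalling gene described here was called by edgeR between genotypes. The lists of ligands, adaptors, branch genes, other receptor tyrosine kinases and chromosomal neighbours of Erbb2 held 130 genes reported here, of which 14 were measured and tested, none of them a neighbour. In tumors 0 of the 14 were called by edgeR and by DESeq2 (3.35% of all genes), and 1 (Kit, 7.14%) had an unadjusted p under 0.05, against 13.6% of all genes. In preneoplastic colon edgeR called 0 of 14, against 0.129% of all genes. Without Kit-B6 sample 1 it called 1 (Kit, 7.14%), against 2.07% of all genes. DESeq2 called 1 (Kit, lower in Kit-W/sh; 7.14%, against 2.14% of all genes), and 4 (28.6%) had an unadjusted p under 0.05, against 10.7% of all genes. The median log2 fold change of the 14 genes, Kit-W/sh over Kit-B6, was 0.012 in tumors, against -0.015 over all genes tested. In preneoplastic colon it was 0.028, against -0.0078 over all genes. The ligand Hbegf, which binds Egfr and Erbb4, averaged 278 ± 76.7 CPM in the Kit-W/sh tumors, against 241 ± 78.2 CPM in the Kit-B6 tumors (log2 fold change 0.19 ± 0.25, edgeR adjusted p = 0.765). Of the 27 adaptors and regulators listed, 4 were measured. Ptpn11, the SHP2 phosphatase that relays receptor signals to RAS, averaged 1387 ± 181 CPM in the Kit-W/sh tumors, against 1333 ± 225 CPM in the Kit-B6 tumors (0.045 ± 0.13, edgeR adjusted p = 0.909). The log2 fold changes of Cblb (a ubiquitin ligase), Ptpn1 (a phosphatase that acts on receptor kinases) and the membrane mucin Muc1 were 0.21 ± 0.24, 0.11 ± 0.15 and 0.17 ± 0.30.

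Downstream, the log2 fold change of the MAPK phosphatase Dusp4 in tumors was 0.23 ± 0.28. In the STAT branch the kinases Jak1 and Jak2 were at -0.20 ± 0.14 and -0.24 ± 0.16, and the transcription factor Stat3 was at 0.10 ± 0.12. The 5 other receptor tyrosine kinases all had negative values in tumors and none passed. They were Kit (-1.08 ± 0.48, edgeR adjusted p = 0.363), the macrophage receptor Csf1r (-0.30 ± 0.29), the ephrin receptor Epha2 (-0.30 ± 0.22), the endothelial receptor Kdr (-0.28 ± 0.26) and the stromal receptor Pdgfrb (-0.022 ± 0.31).

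Between stages, several of the same genes changed in tumors. In Kit-B6 mice 5 of the 14 were called higher and 0 lower by edgeR (35.7%, against 41.1% of all genes). In Kit-W/sh mice 3 were called higher and 1 lower (28.6%, against 39.7% of all genes). Dusp4, which ERK signalling is known to induce, ranged from 1177 to 2733 CPM (median 1627) in Kit-W/sh tumors, against 243 and 227 CPM in Kit-W/sh preneoplastic colon. It ranged from 696 to 2463 CPM (median 1367) in Kit-B6 tumors, against 318.5, 203 and 178 CPM in Kit-B6 preneoplastic colon. Every tumor lay above every preneoplastic sample of its genotype, which held for 30.4% of all genes in the Kit-W/sh comparison and 16.6% in the Kit-B6 one. The log2 fold changes were 2.88 ± 0.46 in Kit-W/sh (edgeR adjusted p = 0.000372) and 2.64 ± 0.38 in Kit-B6 (edgeR adjusted p = 0.000105). Pdgfrb also rose in both genotypes, by 1.38 ± 0.49 in Kit-W/sh (edgeR adjusted p = 0.034) and by 1.24 ± 0.41 in Kit-B6 (edgeR adjusted p = 0.0242).

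Further genes were called by edgeR in 1 genotype, and none of them was called for the interaction by edgeR or DESeq2. DESeq2 called Muc1 also in Kit-W/sh and Csf1r also in Kit-B6 (adjusted p = 0.0373 and 0.0326). In Kit-W/sh mice Hbegf fell by 0.99 ± 0.35 (edgeR adjusted p = 0.0326). Hbegf averaged 278 ± 76.7 CPM in Kit-W/sh tumors (n = 6) and 546.5 ± 131 CPM in Kit-W/sh preneoplastic colon (n = 2). Csf1r rose there by 1.42 ± 0.43 (edgeR adjusted p = 0.0172). In Kit-B6 mice Muc1 rose by 2.52 ± 0.47 (edgeR adjusted p = 0.000648), to 275 ± 100.4 CPM in tumors, against 47.6 ± 28.9 CPM in preneoplastic colon. Epha2 rose by 1.02 ± 0.30 and Stat3 by 0.58 ± 0.15 in Kit-B6 mice (edgeR adjusted p-values 0.0135 and 0.00633). Hbegf was not called with unscaled totals, with reference-gene scaling, or without Kit-W/sh tumor 1, the library labelled Kit-W/sh tumor 2, both libraries that stood apart, or either Kit-W/sh preneoplastic sample. Pdgfrb was not called in Kit-W/sh without tumor 5 or 6, without either preneoplastic sample, with reference-gene scaling or with the replicate block. In Kit-B6 Pdgfrb was not called without preneoplastic sample 2 or 3, with the replicate block, or in the fit of the 2 groups only. Csf1r in Kit-W/sh was not called on leaving out either preneoplastic sample or with reference-gene scaling, and Epha2 in Kit-B6 was not called without preneoplastic sample 2. In Kit-W/sh mice, 1 of the 14 genes (7.14%) was called without preneoplastic sample 1, against 132 of all genes (14.8%). Without preneoplastic sample 2 it was 1 (7.14%), against 159 (17.8%). Both fits take the spread of the lone preneoplastic sample from the other groups. With reference-gene scaling 1 (7.14%) was called, against 20.7% of all genes. In Kit-B6 mice 3 of the 14 (21.4%) were called without preneoplastic sample 2, against 31.2% of all genes. The count was 8 (57.1%) without Kit-B6 tumor 2, with unscaled totals and without both libraries that stood apart, against 46.6%, 43% and 50.2% of all genes. The share of the 14 genes in Kit-B6 was also above that of all genes with DESeq2 (50%, against 42.6%) and with reference-gene scaling (35.7%, against 28.2%). It was above too with the replicate block (35.7%, against 31.8%) and with Kit-B6 tumors 4 and 5 summed (50%, against 46.6%). The same held without Kit-B6 tumor 3, 4 or 6 or preneoplastic sample 1. Without tumor 1, tumor 5 or preneoplastic sample 3, with no filter and in the fit of 2 groups it lay below. Which share was larger thus depended on the setting. The summed level of the 4 fibroblast genes, which include Pdgfrb, was 7858 to 14550 CPM in the Kit-W/sh tumors, 4462 to 19730 CPM in the Kit-B6 tumors, 2284 to 4666 CPM in Kit-W/sh preneoplastic colon and 2416 to 4700 CPM in Kit-B6 preneoplastic colon. That of the 7 measured genes of the 9 on the macrophage list, which include Csf1r, was 2670 to 4381 CPM in Kit-W/sh tumors and 1304 to 1567 CPM in Kit-W/sh preneoplastic colon. The part of these cell types in the changes was not tested.

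**Figure D3:**
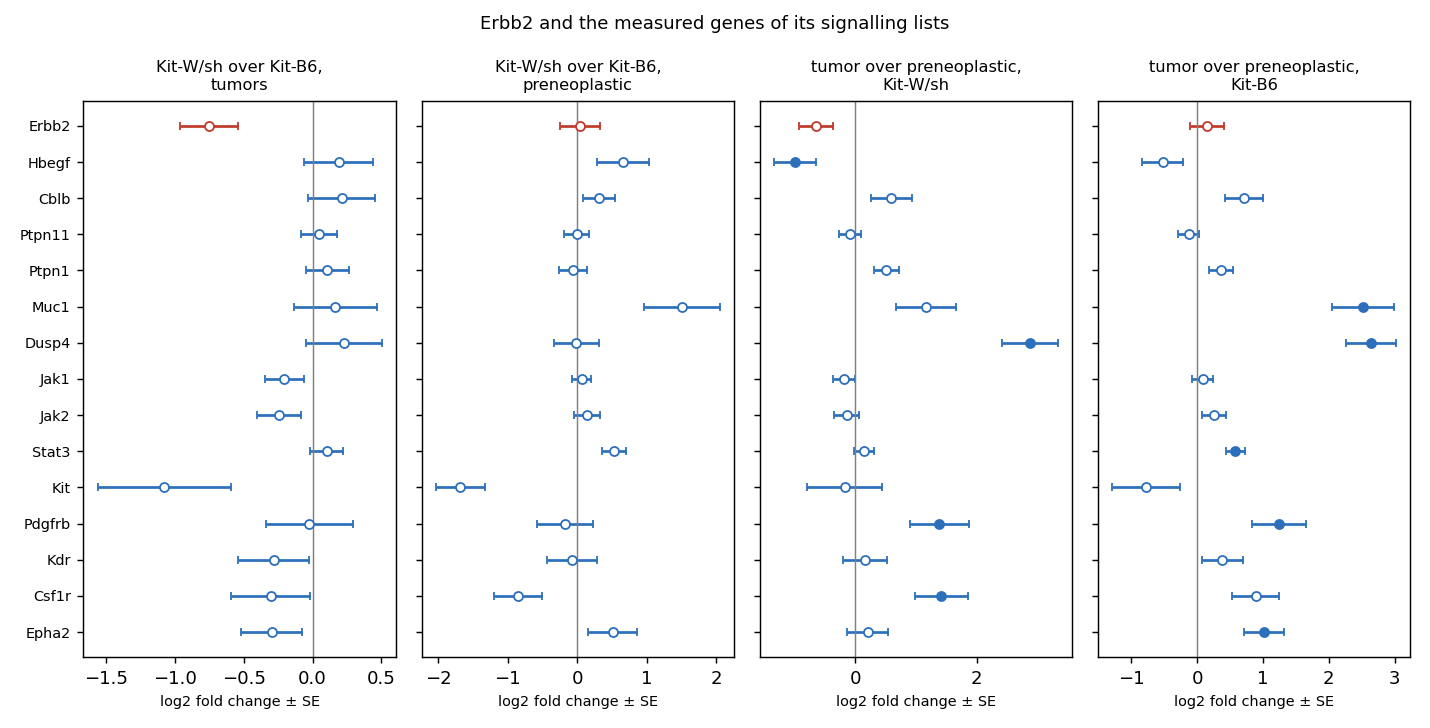
Log2 fold change ± SE from edgeR for Erbb2 (red) and the 14 measured genes of its signalling lists (blue) in 4 comparisons; each panel has its own scale, and filled points passed an adjusted p of 0.05. Erbb2 is open in all panels, no gene is filled between genotypes, and Dusp4 and Pdgfrb are filled between stages in both genotypes.

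The gene whose levels ran most like those of Erbb2 was Atp9a, an endosomal ATPase of the lipid flippase family. Likeness was the root mean square difference between the log2 CPM of 2 genes, each centred on its own mean, over 803 other genes with a count in every library. A gene with the same level throughout would differ from Erbb2 by 0.45 log2 units over the 17 libraries. Atp9a differed by 0.21, followed by the actin-binding protein Lima1 (0.28), the exchange factor Dock9 (0.30), the NF-kB regulator Ikbkg (0.30) and the activin receptor Acvr1b (0.30). In all, 92 genes lay closer than such a flat gene, 60 with unscaled library totals and 53 without Kit-B6 tumor 4. Over the 12 tumors, where a flat gene would differ by 0.48, the closest were Atp9a (0.16), the sphingomyelinase Smpd3 (0.22), the serpin Serpinb6a (0.24), the transcription factor Irf2 (0.25) and the glypican Gpc4 (0.26). The distances between genes do not depend on library scaling, which both genes share. Without Kit-B6 tumor 4, Atp9a was again the closest, at 0.21 over 16 libraries and 0.17 over 11 tumors, whereas Acvr1b, Serpinb6a and Irf2 were no longer among the 5 closest.

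Kit-W/sh tumors 1 to 6 had 1838, 2339, 1675, 1908, 1941 and 1843 CPM of Atp9a. Kit-B6 tumors 1 to 6 had 2982, 2456, 2655, 4932, 2212 and 2082 CPM. Kit-W/sh preneoplastic samples 1 and 2 had 3505 and 3133 CPM, and Kit-B6 preneoplastic samples 1 to 3 had 3411, 2788 and 2945 CPM. As for Erbb2, Kit-B6 tumor 4 was the highest and Kit-B6 tumors 5 and 6 the lowest of their group, and the library labelled Kit-W/sh tumor 2 was the highest of its group. Its log2 fold change between genotypes in tumors was -0.60 ± 0.20 (edgeR adjusted p = 0.211). Between stages in Kit-W/sh it was called in the fit of all libraries (-0.80 ± 0.24, edgeR adjusted p = 0.0168), in which Erbb2 was not (-0.65 ± 0.29). Whether these values differ was not tested. Atp9a was chosen for its likeness to Erbb2, so its values are not independent of those of Erbb2.

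**Figure D4:**
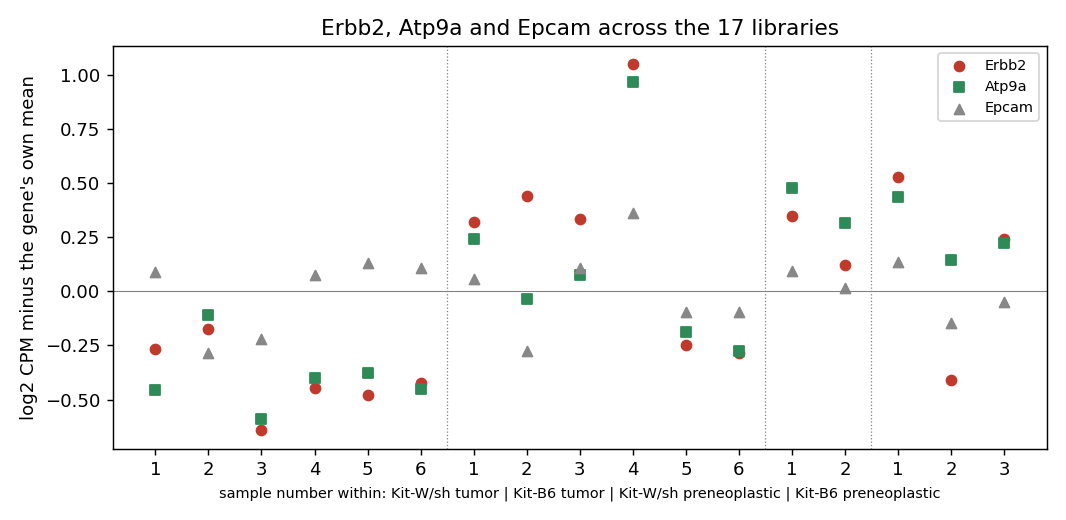
Log2 CPM minus the gene's own mean over the 17 libraries for Erbb2 (circles), Atp9a (squares) and Epcam (triangles), with dotted lines between groups. Erbb2 and Atp9a lie close together in most libraries, with Kit-B6 preneoplastic sample 2 and Kit-B6 tumor 2 among the wider gaps, whereas Epcam does not show the lower level in Kit-W/sh tumors.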

How the data were processed

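Each sample had its own deposited table of whole-number counts for the genes of the panel, and whether reads or molecular tags were counted is not given in the sources used here. The panel was the QIAseq targeted mouse immuno-oncology panel, per the labels' protocols, and the instrument a MiSeq, per the series' design text. The submitters' processing notes name mm9 and DESeq2 with no role, and the aligner, counter and filters are not given in the sources used here. Each table had 993 entries, of which 5 control amplicons had a highest count of 0 and were left out.

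Groups and sample numbers came from the titles. The labels do not say that samples of a group came from separate mice, so the p-values reflect only how these samples vary. All pairs of libraries within a group differed by more than counting noise (lowest chi-square per degree of freedom 13.03). Intervals on counts hold for counting error alone, since PCR copies are not separate molecules.

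Counts were tested in R 4.3.3 with edgeR 4.0.16 (TMM scaling, filterByExpr at its minimum count of 10 and total of 15, two-sided quasi-likelihood F test with robust fit), with Benjamini-Hochberg adjustment over all genes tested and a threshold of 0.05. Genotype comparisons used the libraries of their own stage. Stage comparisons and the interaction came from 1 fit of all 17 libraries. DESeq2 1.42.0, other scalings, no filter, other fits, a replicate block and leaving out libraries were alternatives. The scripts were run on simulated counts with the same spread for every gene, as a check of the code only. Single values were compared with two-sided exact permutation tests over samples.

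Erbb2, the gene lists and the comparisons were chosen with earlier results of these data known. The naming rule took Erbb2, Epcam, Kit, all measured genes of the signalling lists and the 5 genes most like Erbb2 over all libraries and over tumors. Some genes of the lists are not reported here, and the list counts leave them out. Cpa3 and the marker sums are given for libraries or cell types beside a result. The summing of Kit-B6 tumors 4 and 5, the permutation test of log2 CPM and the likeness without Kit-B6 tumor 4 were added after the data were seen.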

Additional observations from a re-analysis of the deposited data

Results flagged for a closer look

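A sample far from the rest of its group was looked for in 52 sets of 6 tumors, and 8 were found. Chance flags about 1 in 20 independent sets. Some of these genes were chosen for their likeness to Erbb2, and the sets share tumors. The rate therefore gives no expected number for the 8. The library labelled Kit-W/sh tumor 2 had 24.3 Erbb2 counts per 1000 Epcam counts, with the next tumor of its group at 17.6. It also had 258 CPM of Kit, with the next at 99.9 CPM, and 497 CPM of Csf1r, with the next at 383 CPM. Kit-B6 tumor 4 had the highest level of its group, by a wide gap, for 4 genes chosen for their likeness to Erbb2. They were Atp9a at 4932 CPM (next 2982), Lima1 at 9727 CPM (next 7058), Acvr1b at 1098 CPM (next 754) and Irf2 at 1841 CPM (next 1033). Kit-B6 tumor 1 had 737 CPM of Cblb, with the next tumor at 400.0 CPM. The Erbb2 level itself was not far enough from the others in any tumor to be found this way.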

How the results depend on the processing

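The Erbb2 difference between genotypes in tumors kept its sign in all 22 alternatives, from -0.85 to -0.58 on leaving out 1 library and from -0.77 (DESeq2) to -0.61 otherwise. It passed with DESeq2. The permutation test of this single value gave -0.67 (two-sided exact permutation p = 0.0108, not adjusted over genes). Calls over all genes there were 27 with DESeq2, 15 without both libraries that stood apart and 0 otherwise. In preneoplastic colon Erbb2 gave -0.18 to 0.26 on leaving out 1 library and -0.029 with reference-gene scaling. Calls there were 20 with DESeq2, 0 with unscaled totals, 0 with the replicate block, 0 in the fit of all libraries and 0 to 16 on leaving out 1 library. The Erbb2 stage difference in Kit-W/sh was -0.76 to -0.52 on leaving out 1 library. It passed in the fit of 2 groups (-0.66, with 48.5% of all genes called) and without both libraries (-0.695, with 46.3%). Calls there were 180 with reference-gene scaling and 132 to 367 on leaving out 1 library. In Kit-B6 the stage difference was -0.063 to 0.40 on leaving out 1 library and -0.038 without both libraries, and its Epcam ratio -0.084 to 0.24. The interaction was -1.06 to -0.60 on leaving out 1 library, with 0 to 2 calls over all genes, and 1 with DESeq2. The cause was not tested. Between stages, 52.8% of calls were higher in tumors for Kit-W/sh with TMM scaling and 70.1% with unscaled totals, and for Kit-B6 these were 54.1% and 73%. Same-numbered tumors of the 2 genotypes had correlations of -0.25 to 0.40. Differently numbered tumors were not compared, so whether the numbers pair samples cannot be told from these values. With the replicate block Erbb2 in tumors was at -0.68 (edgeR adjusted p = 0.232), and in the stage comparison in Kit-W/sh at -0.53 (edgeR adjusted p = 0.197). An Epcam ratio over several epithelial genes was not run, since Epcam alone was measured.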

Other observations

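Within each tumor group, Erbb2 was set against Kit, Cpa3, Epcam and the summed differentiated colonocyte genes on the log2(CPM + 1) scale, 8 relations in all with n = 6 each. No relation passed after adjustment over the 8. The closest was with Cpa3 in Kit-W/sh tumors, where Pearson's r was 0.885 (exact permutation p = 0.00833, adjusted p = 0.0666) and Spearman's rho 0.943 (exact permutation p = 0.0167, adjusted p = 0.134). Without the 2 tumors farthest from the median of Cpa3, r was 0.838. In Kit-B6 tumors r was -0.497 (exact permutation p = 0.297, adjusted p = 0.339) and rho -0.429 (exact permutation p = 0.419, adjusted p = 0.479), and without the 2 farthest tumors r was 0.401, so its sign rested on those tumors. In Kit-W/sh tumors other than number 2, Cpa3 was at most 9.86 CPM, so the r of 0.838 there rests on tumors with few Cpa3 counts. With Kit, r was 0.796 in Kit-W/sh tumors (exact permutation p = 0.05, adjusted p = 0.2; rho 0.543, p = 0.297, adjusted p = 0.475). In Kit-B6 tumors it was 0.681 (exact permutation p = 0.156, adjusted p = 0.215; rho 0.714, p = 0.136, adjusted p = 0.35). Without the 2 farthest tumors these became -0.301 and -0.54, so they rested on those tumors. With the colonocyte genes, r was 0.705 in Kit-W/sh tumors (exact permutation p = 0.117, adjusted p = 0.215; 0.427 without the 2 farthest tumors). In Kit-B6 tumors it was 0.804 (exact permutation p = 0.075, adjusted p = 0.2), and -0.116 without the 2 farthest tumors. Spearman's rho was 0.657 in both groups (exact permutation p = 0.175, adjusted p = 0.35). With Epcam, r was -0.108 in Kit-W/sh tumors (exact permutation p = 0.919, adjusted p = 0.919; rho -0.257, p = 0.658, adjusted p = 0.658), and -0.395 without the 2 farthest tumors. In Kit-B6 tumors it was 0.641 (exact permutation p = 0.161, adjusted p = 0.215; rho 0.429, p = 0.419, adjusted p = 0.479), and 0.981 without the 2 farthest tumors. The highest tumor of each group in the colonocyte genes, the library labelled Kit-W/sh tumor 2 at 27880 CPM and Kit-B6 tumor 4 at 50070 CPM, was also the highest of its group in Erbb2.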
